A study of Mus musculus with 5 samples.

Results

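Described here are 10 genes of the mouse uterus whose products decide whether a T cell that meets antigen is activated or restrained: Cd80, Cd86, Cd83, Cd274, Pdcd1lg2, Icosl, Cd276, Vsir, Lgals9 and Ido1. They were taken by symbol, as genes of this function, and all 10 were found among the 28666 genes of the deposited count table. The RNA came from whole uteri of ICR females, 6 to 8 weeks old, mated with vasectomized C57BL/6 males, so that the females received seminal plasma (SP) without sperm. Females of the young-SP group were caged with young males and females of the aged-SP group with aged males, and the sample labels place collection at 3.5 days after caging, while the study's methods give a slightly earlier day. The aged-SP group has 2 libraries (replicates 1 and 4) and the young-SP group has 3 (replicates 1, 2 and 4). No library of unmated females was analysed here, so the values compare seminal plasma of aged and young males and do not show what mating itself did. Each library holds between 15071914 and 16728601 counts. Nothing in the labels says that the libraries of a group come from separate females, so the p-values measure only the spread between these libraries, which may in part be technical.

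T cells need a signal beside the antigen receptor, and antigen-presenting cells supply it with CD80 and CD86, which both bind the activating receptor CD28 and the inhibitory receptor CTLA-4. ICOS ligand (Icosl) sustains T cells that are already activated. The PD-1 ligands (Cd274, encoding PD-L1, and Pdcd1lg2, encoding PD-L2), VISTA (Vsir), B7-H3 (Cd276) and galectin-9 (Lgals9) are best known for restraining T cells, and IDO1 starts the breakdown of tryptophan to kynurenine, which limits T cell growth. CD83 marks mature dendritic cells and stabilizes surface CD86 and MHC class II. In pregnancy these molecules are studied because the uterus must tolerate paternal antigens, which seminal plasma already carries.

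The uterine libraries held the genes that mark the tissue. The stromal and Müllerian patterning gene Hoxa10 lay between 437.3 and 519.0 CPM (counts scaled to library depth with TMM factors). Markers of antigen-presenting cells were detected too, with Csf1r of macrophages between 77.3 and 160.2 CPM and Itgax, which encodes CD11c, between 11.3 and 19.8 CPM. In whole tissue, fewer cells of a type and less RNA per cell cannot be told apart. Replicate 1 of the young-SP group stood apart from the other two of its group. The root mean square log2 difference over all tested genes was 0.346 between young-SP replicates 2 and 4, but 0.574 and 0.536 between replicate 1 and these libraries, and 0.575 and 0.525 between it and aged-SP replicates 1 and 4. Between aged-SP replicates 1 and 4 this difference was 0.466. All 10 pairs of libraries differed beyond counting noise (chi-square over its degrees of freedom at least 18.0). Results that rest on young-SP replicate 1 are therefore given with and without it.

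The start of 7 of the 10 genes was found in the RefSeq promoter table (GRCm38.p6), which gives 250 bases before and 50 bases after each start: Cd80, Cd274, Pdcd1lg2, Icosl, Cd276, Vsir and Lgals9. These promoters differed in base composition. The dinucleotide CG occurred 39 times in the promoter of Cd276, 26 times in that of Icosl and 15 times each in those of Cd274 and Vsir, against a median of 7 over the 32851 promoters of the table. It occurred 4 times at Lgals9 and 3 times each at Cd80 and Pdcd1lg2. The promoters of Cd80 (chr16:38458683-38458982, plus strand) and Icosl (chr10:78069118-78069417, plus strand) are shown because these are the tested genes whose libraries separated by group, and they stand near opposite ends in base composition. Capitals mark each CG.
Cd80: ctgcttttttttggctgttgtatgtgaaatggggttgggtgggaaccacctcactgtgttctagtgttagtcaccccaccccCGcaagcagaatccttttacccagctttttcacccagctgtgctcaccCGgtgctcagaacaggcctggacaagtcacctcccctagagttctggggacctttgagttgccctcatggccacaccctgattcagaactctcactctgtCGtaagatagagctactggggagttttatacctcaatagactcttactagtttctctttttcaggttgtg
Icosl: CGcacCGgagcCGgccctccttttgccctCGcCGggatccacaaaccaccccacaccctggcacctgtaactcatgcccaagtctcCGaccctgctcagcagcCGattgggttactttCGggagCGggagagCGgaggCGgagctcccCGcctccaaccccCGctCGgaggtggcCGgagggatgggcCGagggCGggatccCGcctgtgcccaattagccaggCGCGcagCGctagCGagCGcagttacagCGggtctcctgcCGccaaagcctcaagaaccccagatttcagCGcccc

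Several of these genes are known to respond to interferons, and 3 motifs were searched on both strands of the 7 promoters. The interferon-stimulated response element, TTTC followed after any 2 bases by TTTC (on the other strand GAAA, any 2 bases, GAAA), was found in the promoter of Lgals9 alone, and in 3.44% of all promoters of the table. The gamma-activated site (TTC, any 3 bases, GAA, the same on both strands) was found in 0 of the 7 promoters and in 8.30% of all, and an NF-kB site (GGGA, any 2 bases, TTCC, or on the other strand GGAA, any 2 bases, TCCC) in 0 of the 7 and in 1.47% of all. The Lgals9 promoter (chr11:78984875-78985174, minus strand) is shown for its 2 matches, in capitals. They lie from 55 to 46 bases before the start and from base 16 to base 25 after it, and a match is a description of the letters, not a shown binding site.
Lgals9: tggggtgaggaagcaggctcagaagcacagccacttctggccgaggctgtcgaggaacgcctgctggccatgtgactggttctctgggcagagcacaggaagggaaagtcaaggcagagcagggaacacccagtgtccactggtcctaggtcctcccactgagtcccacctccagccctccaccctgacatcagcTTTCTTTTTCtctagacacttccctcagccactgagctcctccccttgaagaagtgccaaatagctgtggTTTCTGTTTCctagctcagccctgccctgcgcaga

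The first question was whether any of the 10 genes differed between uteri exposed to seminal plasma of aged and of young males. Of the 10 genes, 8 had enough counts to be tested, and Pdcd1lg2 and Ido1 did not. By edgeR's quasi-likelihood test, 0 of these 8 passed an adjusted p under 0.05 with an absolute log2 fold change over 1, against 0.147% of all 17013 genes tested, and 0 had an unadjusted p under 0.05, against 19.0% of all genes tested (9.62% with the aged-SP group higher and 9.36% with it lower). DESeq2 called 0 as well, against 3.60% of its genes, with Cd83 at an unadjusted p under 0.05, and limma-voom called 0, against 0.159%. The log2 fold change was above 0 for 5 genes and below 0 for 3, with a median of 0.21 against 0.0072 over all genes tested. In 2 of the 8 genes, Cd80 and Icosl, both aged-SP libraries lay above all young-SP libraries, while 38.8% of all genes tested had groups that did not overlap in either direction and 19.5% had them apart with the aged-SP group higher and 19.3% with it lower.

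**Figure D1:**
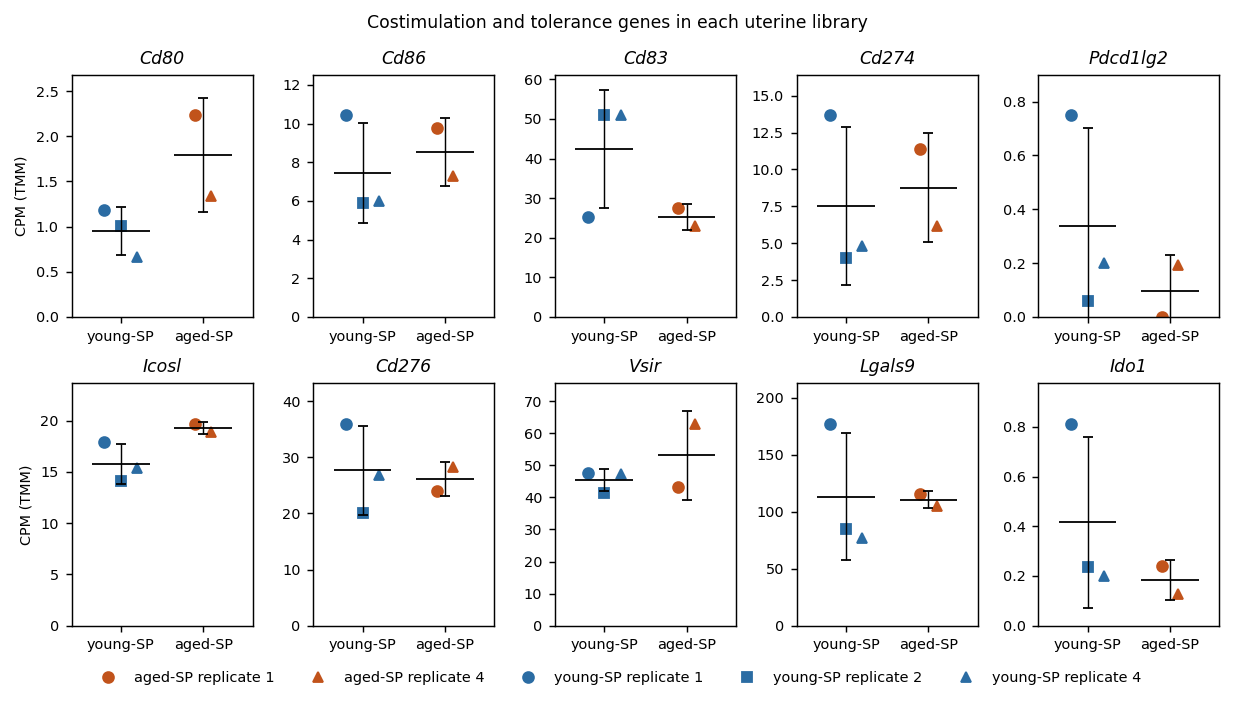
CPM (TMM) of the 10 genes in each library, young-SP group in blue and aged-SP group in orange, with the symbol giving the replicate and bars the mean ± SD (cut off at 0) of 3 and 2 libraries. The groups do not overlap for Cd80 and Icosl among the tested genes, and young-SP replicate 1 is the highest library for Cd86, Cd274, Pdcd1lg2, Cd276, Lgals9 and Ido1.

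Among the ligands of CD28 and CTLA-4, Cd80 lies on chr16:38458933-38486933 (plus strand), 1.79 Mb from Cd86 on chr16:36603869-36666081 (minus strand), both in GRCm38. Cd80 was the rarer transcript, with 37 and 21 counts in replicates 1 and 4 of the aged-SP group and 19, 17 and 10 counts in young-SP replicates 1, 2 and 4. This is 2.24 and 1.34 CPM against 1.19, 1.0 and 0.668 CPM. Both aged-SP libraries were higher, but replicate 4 of that group exceeded the nearest young-SP library only narrowly. The log2 fold change of Cd80, aged-SP over young-SP, was 0.90 (SE 0.40), with an adjusted p of 0.307 by edgeR and a 95% interval from -0.11 to 1.91, and without young-SP replicate 1 it was 1.08 (SE 0.45, adjusted p = 0.246). Without aged-SP replicate 1, the library with the most Cd80 counts, the log2 fold change was 0.49.

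Cd86 was measured at 9.79 and 7.29 CPM in the aged-SP libraries and at 10.4, 5.91 and 6.01 CPM in young-SP replicates 1, 2 and 4. The groups overlapped, because the highest library of all was young-SP replicate 1 while the other two of that group were the lowest. Cd86 had a log2 fold change of 0.20 (SE 0.33, adjusted p = 0.782), with a 95% interval from -0.62 to 1.01, and it was 0.51 (SE 0.24, adjusted p = 0.287) without young-SP replicate 1.

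The balance of both ligands within a library does not depend on the library's depth. The ratio of Cd86 to Cd80 counts was 4.38 and 5.43 in the aged-SP libraries and 8.79, 5.88 and 9.0 in young-SP replicates 1, 2 and 4. Both aged-SP libraries thus had a lower ratio than any young-SP library, by 0.67 on the log2 scale. With 2 libraries against 3, an exact two-sided permutation test cannot go below p = 0.2, which is the value it gave here, and the adjusted p over the 6 ratios compared was 0.6.

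Icosl, on chr10:78069302-78083913 (plus strand), varied least of all 10 genes, with the highest FPKM 1.35 times the lowest. It was at 19.7 and 18.9 CPM in the aged-SP libraries and at 18.0, 14.1 and 15.4 CPM in young-SP replicates 1, 2 and 4. The aged-SP libraries were again above all of the young-SP group, with replicate 1 of that group close below them. Icosl had a log2 fold change of 0.29 (SE 0.15, adjusted p = 0.371), with a 95% interval from -0.0933 to 0.67, and 0.38 (SE 0.15, adjusted p = 0.219) without young-SP replicate 1.

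Cd83, the maturation marker on chr13:43784775-43803132 (plus strand), went the other way. It was at 27.6 and 23.0 CPM in the aged-SP libraries, and at 25.1, 51.0 and 51.0 CPM in young-SP replicates 1, 2 and 4. Young-SP replicates 2 and 4 were alike and higher than the remaining libraries, and young-SP replicate 1 lay between the aged-SP libraries. Cd83 had a log2 fold change of -0.74 (SE 0.34, adjusted p = 0.310) over all 5 libraries, with a 95% interval from -1.58 to 0.0962. Without young-SP replicate 1, Cd83 fell by 1.02 on the log2 scale (SE 0.13, adjusted p = 0.0279), and this was the only call among the 10 genes under any alternative run. That setting called 3.45% of all genes tested, and it left 1 of the 8 genes past both thresholds and 4 with an unadjusted p under 0.05 (Cd83, Lgals9, Cd274 and Icosl), against 22.7% of all genes.

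Relative to Cd86, whose protein CD83 stabilizes at the cell surface, Cd83 counts were 2.82 and 3.15 times as many in the aged-SP libraries and 2.41, 8.63 and 8.49 times as many in young-SP replicates 1, 2 and 4. The groups overlapped through young-SP replicate 1 alone (exact permutation p = 0.6, adjusted p = 0.6).

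**Figure D2:**
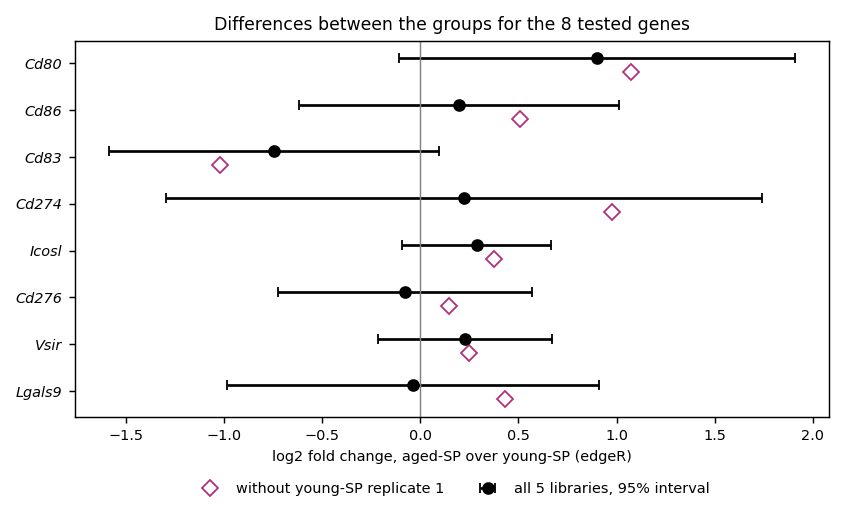
The log2 fold change (edgeR), aged-SP over young-SP, of the 8 tested genes, with black points and 95% intervals for all 5 libraries and open diamonds without young-SP replicate 1. All 8 intervals include 0, and leaving out that library moves Cd83 down to -1.02 and Cd274 up to 0.98.

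The PD-1 ligands are neighbours, with Pdcd1lg2 (chr19:29410919-29471157, plus strand) beginning 22.8 kb after the end of Cd274 (chr19:29367455-29388095, plus strand). Cd274 was at 11.4 and 6.14 CPM in the aged-SP libraries and at 13.7, 4.02 and 4.81 CPM in young-SP replicates 1, 2 and 4. Each group held high and low libraries, and the difference within the young-SP group was larger than that between the groups. The log2 fold change of Cd274 was 0.22 (SE 0.61, adjusted p = 0.875), its 95% interval ran from -1.30 to 1.74, and it was 0.98 (SE 0.36, adjusted p = 0.199) without young-SP replicate 1. Of the exon bases of Cd274, 14.1% are shared in position with AC119228.1 on the opposite strand, and since the strand setting of the counting is not given in the sources used here, reads of both cannot be told apart there.

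Pdcd1lg2 was near the limit of detection, with counts of 0 and 3 in the aged-SP libraries and of 12, 1 and 3 in young-SP replicates 1, 2 and 4. A count of 0 allows up to 3 counts, which is between 0.179 and 0.199 CPM depending on the library, for counting error only. Young-SP replicate 1 was the only library clearly above this limit. With 0.5 added to each count, the ratio of Pdcd1lg2 to Cd274 was 0.00265 and 0.0363 in the aged-SP libraries and 0.0569, 0.0219 and 0.0483 in young-SP replicates 1, 2 and 4, with overlap between the groups (exact permutation p = 0.4, adjusted p = 0.6).

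The ratio of Cd274 to Cd80 sets a restraining ligand against an activating one. It was 5.08 and 4.57 in the aged-SP libraries and 11.5, 4.0 and 7.2 in young-SP replicates 1, 2 and 4. The aged-SP libraries lay inside the range of the young-SP group (exact permutation p = 0.6, adjusted p = 0.6).

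Of the other ligands of this protein family, Cd276 (chr9:58524298-58555437, minus strand) was at 24.1 and 28.3 CPM in the aged-SP libraries and at 36.0, 20.1 and 26.9 CPM in young-SP replicates 1, 2 and 4. The aged-SP libraries lay within the range of the young-SP group. In log2 terms Cd276 differed by -0.0780 (SE 0.26, adjusted p = 0.896, 95% interval from -0.72 to 0.57) and turned to 0.14 without young-SP replicate 1. Its exons overlap Gm10657 on the opposite strand over 11.4% of their bases.

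Vsir, on chr10:60346851-60372684 (plus strand), was at 43.3 and 63.0 CPM in the aged-SP libraries and at 47.6, 41.4 and 47.3 CPM in young-SP replicates 1, 2 and 4. Aged-SP replicate 4 alone was high, and the other aged-SP library lay among the young-SP group. For Vsir the log2 fold change was 0.23 (SE 0.18, adjusted p = 0.528, 95% interval from -0.22 to 0.67), and it was -0.0671 without aged-SP replicate 4. The ratio of Cd276 to Vsir was 0.555 and 0.450 in the aged-SP libraries and 0.756, 0.486 and 0.569 in young-SP replicates 1, 2 and 4, with overlap (exact permutation p = 0.4, adjusted p = 0.6).

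Lgals9, on chr11:78962974-78984946 (minus strand), encodes galectin-9, a ligand of TIM-3. It was at 115.6 and 105.1 CPM in the aged-SP libraries and at 177.2, 85.2 and 77.2 CPM in young-SP replicates 1, 2 and 4. The aged-SP libraries were close to each other and stood between young-SP replicate 1 and the other two of its group. For Lgals9 the log2 fold change was -0.0368 (SE 0.38, adjusted p = 0.971, 95% interval from -0.99 to 0.91), and it became 0.43 (SE 0.11, adjusted p = 0.103) without young-SP replicate 1.

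Ido1, on chr8:24584136-24597009 (minus strand), was counted 4 and 2 times in the aged-SP libraries and 13, 4 and 3 times in young-SP replicates 1, 2 and 4. It passed the detection limit by a wide margin only in young-SP replicate 1, as Pdcd1lg2 did. The ratio of Ido1 to Cd274 was 0.0213 and 0.0208 in the aged-SP libraries and 0.0594, 0.0588 and 0.0417 in young-SP replicates 1, 2 and 4. This was lower in both aged-SP libraries (exact permutation p = 0.2, the smallest possible, adjusted p = 0.6), but it rests on very few Ido1 counts.

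Levels of different genes can be compared only per gene length, so the order of the 10 genes was taken from FPKM, which scales counts by gene length and library depth. Lgals9 was the most abundant in all 5 libraries, with a mean of 52.3 FPKM (range 35.9 to 82.3), above 96.8% of all listed genes. Cd83 followed with 13.8 FPKM (8.90 to 20.3), Vsir with 9.66 FPKM (8.43 to 12.5) and Cd276 with 7.38 FPKM (5.61 to 9.76). Icosl had 3.71 FPKM (3.12 to 4.22), Cd274 2.2 FPKM (1.13 to 3.75), Cd86 2.15 FPKM (1.63 to 2.83) and Cd80 0.755 FPKM (0.390 to 1.30). Ido1 and Pdcd1lg2 were last, with 0.177 and 0.145 FPKM. Of the 9 steps in this order, the ranges over the 5 libraries were apart in 3, namely between Lgals9 and Cd83, Cd276 and Icosl, and Cd86 and Cd80. In the other 6 steps the neighbours overlapped, and Cd274 exceeded Cd86 in only 2 of 5 libraries. In every library, the FPKM of Lgals9, Vsir and Cd276 was thus higher than that of either CD28 ligand.

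**Figure D3:**
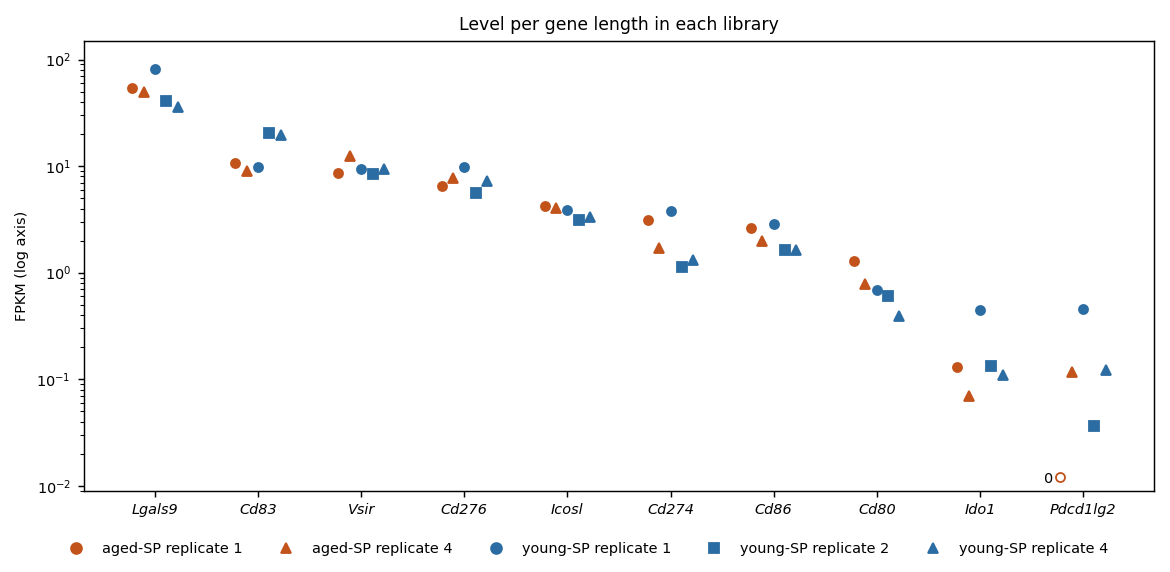
FPKM of the 10 genes in each library on a log axis, ordered by the mean over the 5 libraries, with colour for the group and symbol for the replicate. Lgals9 lies above all others with 35.9 to 82.3 FPKM, and the open symbol marks the library in which Pdcd1lg2 had 0 counts.

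The genes also differed in how far the libraries spread. The highest library had 1.35 times the FPKM of the lowest for Icosl, 1.49 times for Vsir, 1.74 times for Cd276 and for Cd86, 2.28 times for Cd83, 2.29 times for Lgals9, 3.31 times for Cd274 and 3.33 times for Cd80. Cd274 and Vsir, with 15 CG each in their promoters, spread by 3.31 and 1.49 times. A link between promoter composition and spread was not tested.

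Young-SP replicate 1 was the highest library for 6 of the 10 genes (Cd86, Cd274, Pdcd1lg2, Cd276, Lgals9 and Ido1) and the lowest for 0, while it was the highest for 20.6% and the lowest for 20.4% of all genes tested. Young-SP replicate 2 was the lowest library for 5 of the 10 and for 19.7% of all genes tested. Several marker lists moved in the same libraries. Young-SP replicate 1 was the highest library for the summed neutrophil, leukocyte, B cell and uterine epithelium markers. The 5 neutrophil markers summed to 216.9 CPM in young-SP replicate 1, against 50.4 and 33.1 CPM in replicates 2 and 4 and 99.6 and 28.4 CPM in the aged-SP libraries. Their most abundant genes were S100a9, at 101.8 CPM in young-SP replicate 1 and between 2.17 and 50.1 CPM elsewhere, and Csf3r, at 78.7 CPM against 10.9 to 21.8 CPM. S100a8 was highest in that library as well, but Retnlg was lowest there, at 8.63 CPM against 8.95 to 18.4 CPM, and Ly6g was highest in aged-SP replicate 4, at 1.22 CPM. All 5 neutrophil markers were detected in every library.

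The 8 leukocyte markers summed to 520.1 CPM in young-SP replicate 1 and to between 363.4 and 398.1 CPM in the other libraries, with Ptprc (74.4 to 124.5 CPM) and Laptm5 (71.0 to 115.6 CPM) the most abundant. The 10 macrophage and monocyte markers summed to 1278 and 1092 CPM in the aged-SP libraries and to 1259, 550.5 and 784.8 CPM in young-SP replicates 1, 2 and 4. Without Cd14, a choice made after the values were seen, the other 9 summed to 602.3 and 952.1 CPM against 1008, 481.1 and 695.8 CPM. Aged-SP replicate 1 was the highest library for the sum of all 10, and above young-SP replicate 2 alone for the sum without Cd14. Of their most abundant genes, Cd14 alone gave 675.6 CPM in aged-SP replicate 1 and between 69.5 and 250.9 CPM elsewhere, and C1qb lay between 81.0 and 181.6 CPM. The 8 dendritic cell markers summed to between 69.2 and 91.3 CPM with overlap between the groups, and their most abundant genes were Clec10a (17.1 to 29.0 CPM) and Zbtb46 (16.0 to 23.1 CPM). Among them Itgax had both aged-SP libraries above the young-SP group, as Cd80 and Icosl did, at 15.1 and 19.8 CPM against 14.5, 11.4 and 11.3 CPM (log2 fold change 0.49, SE 0.20, adjusted p = 0.266), and Flt3 had both below it. The part of these cell types in the values of the 10 genes was not tested.

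**Figure D4:**
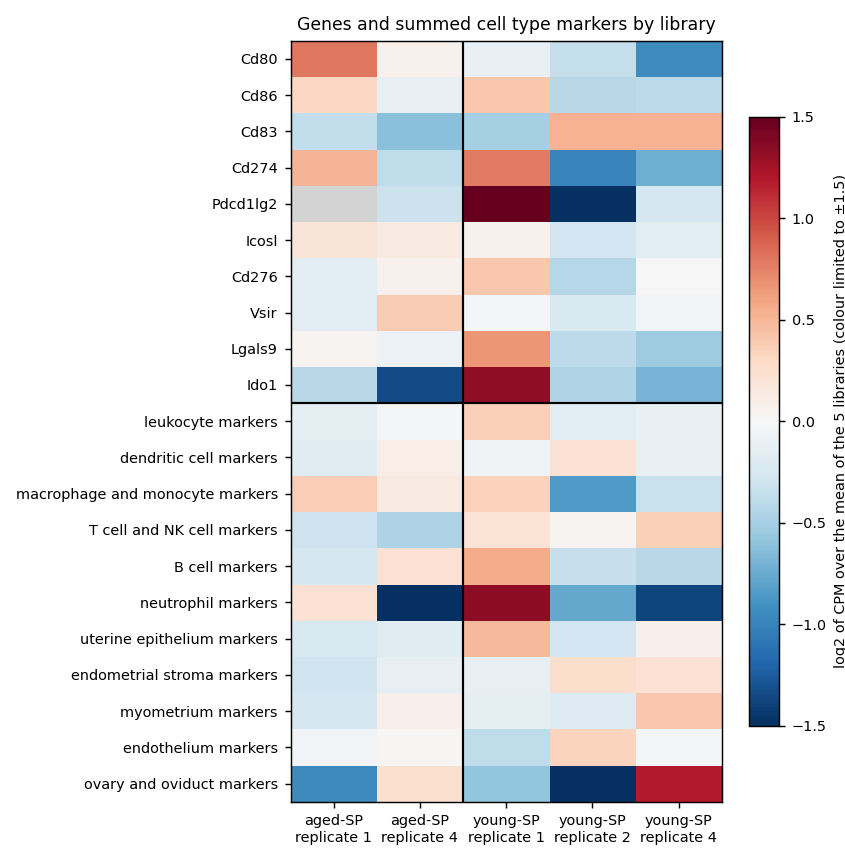
Log2 of the CPM over the mean of the 5 libraries (colour, limited to ±1.5) for the 10 genes above the line and the summed markers of 11 cell types and tissues below it, with libraries as columns. Young-SP replicate 1 is the highest library, in red, for Cd86, Cd274, Pdcd1lg2, Cd276, Lgals9 and Ido1. It is also the highest for the neutrophil, leukocyte, B cell and uterine epithelium markers, and grey marks the 0 counts of Pdcd1lg2.

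To see the genes per leukocyte RNA, each was divided by the summed CPM of the 8 leukocyte markers. Cd80 came to 0.603% and 0.337% of that sum in the aged-SP libraries and to 0.229%, 0.277% and 0.177% in young-SP replicates 1, 2 and 4. Icosl came to 5.31% and 4.74% against 3.45%, 3.89% and 4.08%. These 2 genes, already apart by CPM from the same counts, were higher in both aged-SP libraries, by 1.01 and 0.40 on the log2 scale (exact permutation p = 0.2 each, the smallest possible, adjusted p = 0.64 over the 8 genes). By CPM, 19.5% of all genes tested had the groups apart with the aged-SP group higher. No such share was taken per leukocyte RNA. The other 6 overlapped, and Lgals9 made up 31.2% and 26.4% against 34.1%, 23.4% and 20.5%. With dendritic cell, macrophage and monocyte markers as the divisor in place of leukocyte markers, 2 of the 8 genes had groups apart. Icosl was then lower by 0.19 in the aged-SP group. With Cd14 taken out of that divisor, Icosl was higher by 0.20 in the aged-SP group, and 0 of the 8 genes had groups apart.

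The receptors of these ligands were next compared, as part of a list of 16 T cell receptors and checkpoints. Of these, 14 were tested and 0 were called by edgeR, and the median log2 fold change was -0.18. An unadjusted p under 0.05 was found for 3, against 19.0% of all genes tested. Cd28, which receives CD80 and CD86, was counted 0 and 10 times in the aged-SP libraries and 4, 9 and 11 times in young-SP replicates 1, 2 and 4. Ctla4 had 7 and 0 against 1, 2 and 1 counts and was not tested. Cd28 had a log2 fold change of -0.66 (SE 1.14, adjusted p = 0.789), and both receptors were rare.

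Icos, the receptor of ICOS ligand, was at 1.15 and 0.704 CPM in the aged-SP libraries and at 0.625, 0.768 and 1.07 CPM in young-SP replicates 1, 2 and 4, with overlap. Havcr2, encoding TIM-3, which binds galectin-9, was at 3.39 and 4.60 CPM against 3.19, 1.48 and 2.94 CPM. Both aged-SP libraries were higher for Havcr2, with a log2 fold change of 0.66 (SE 0.39, adjusted p = 0.419).

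Pdcd1, encoding PD-1, showed the largest log2 difference of the 14 tested receptors. Its reads numbered 4 and 5 in the aged-SP libraries and 36, 31 and 14 in young-SP replicates 1, 2 and 4, or 0.242 and 0.320 CPM against 2.25, 1.83 and 0.935 CPM. All young-SP libraries were higher. Pdcd1 had a log2 fold change of -2.55 (SE 0.55, adjusted p = 0.113 by edgeR), and DESeq2 gave an adjusted p of 0.0214. Its ligands did not show this order, as Cd274 overlapped between the groups.

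Markers of T and NK cells stood lower in the same libraries. The 8 markers of that list summed to 29.6 and 26.6 CPM in the aged-SP libraries and to 42.3, 37.7 and 46.9 CPM in young-SP replicates 1, 2 and 4, and 3 of the 7 tested (Cd3d, Cd3g and Ncr1) had both aged-SP libraries lowest, against 19.3% of all genes tested. Ncr1, its most abundant gene, was at 9.91 and 5.82 CPM against 12.2, 13.6 and 19.6 CPM, and Cd4 at 5.14 and 12.3 CPM against 5.38, 5.68 and 6.94 CPM. Cd3g had a log2 fold change of -1.11, with an adjusted p of 0.166 by edgeR, and DESeq2 called it (adjusted p = 0.0416). The part of the T and NK cell markers in the Pdcd1 values was not tested. Lag3, an inhibitory receptor that binds MHC class II, stood the other way at 4.35 and 4.29 CPM against 2.56, 2.66 and 1.87 CPM (log2 fold change 0.87, SE 0.26, adjusted p = 0.174). Btla, an inhibitory receptor of lymphocytes, was at 9.55 and 8.12 CPM against 4.57, 7.03 and 3.87 CPM (log2 fold change 0.77, SE 0.30, adjusted p = 0.253).

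Of 18 other costimulatory and checkpoint ligands, 13 were tested and 0 were called by edgeR, with a median log2 fold change of 0.15. The unadjusted p was under 0.05 for 3, against 19.0% of all genes tested. Vtcn1, encoding B7-H4, a relative of PD-L1 that restrains T cells, was the nearest to the threshold. It was at 141.2 and 112.8 CPM in the aged-SP libraries and at 61.2, 42.0 and 57.2 CPM in young-SP replicates 1, 2 and 4. The groups were well apart, and young-SP replicate 1 lay with its own group. Vtcn1 had a log2 fold change of 1.25 (SE 0.19, adjusted p = 0.0757 by edgeR), and the adjusted p was 0.0351 without young-SP replicate 1 and 7.31e-06 with DESeq2, which made it the only called gene of this list there. The 7 uterine epithelium markers summed to 1151 and 1196 CPM against 1896, 1112 and 1432 CPM, with overlap of the sums. Of its most abundant genes, Krt8 overlapped (202.1 to 400.8 CPM) and Calb1 was lower in both aged-SP libraries, at 102.0 and 60.2 CPM against 519.8, 398.6 and 558.3 CPM (log2 fold change -2.60, SE 0.29, adjusted p = 0.0598 by edgeR and 1.44e-17 by DESeq2). Krt18 was higher in both, at 228.2 and 216.4 CPM against 191.0, 156.5 and 165.5 CPM, and the part of the epithelium in the Vtcn1 values was not tested.

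The galectins related to Lgals9 stood in opposite directions, neither of them past the threshold. Lgals1, encoding galectin-1, which promotes T cell death and tolerance, was at 424.4 and 611.4 CPM in the aged-SP libraries and at 840.9, 821.0 and 866.4 CPM in young-SP replicates 1, 2 and 4 (log2 fold change -0.70, SE 0.17, adjusted p = 0.130). The young-SP libraries agreed closely and lay above both aged-SP libraries. Lgals3 was at 36.0 and 57.8 CPM against 30.1, 25.0 and 34.4 CPM (log2 fold change 0.65, SE 0.24, adjusted p = 0.236).

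**Figure D5:**
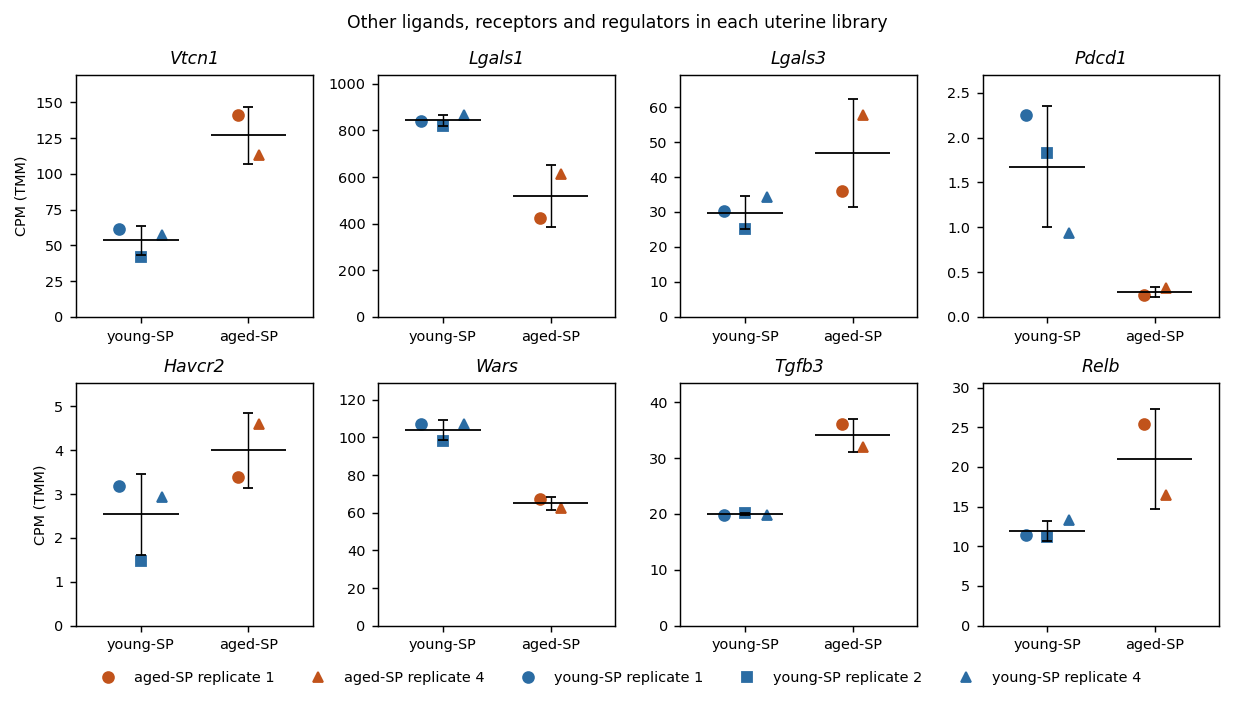
CPM (TMM) of 8 further ligands, receptors and regulators in each library, young-SP group in blue and aged-SP group in orange, with bars for the mean ± SD of 3 and 2 libraries. The groups do not overlap in any of the 8, against 38.8% of all genes tested. The 8 were picked from the named genes, and all but Havcr2 were named for an unadjusted p under 0.05. Their separation therefore follows in part from this choice. Vtcn1, Lgals3, Havcr2, Tgfb3 and Relb are higher in the aged-SP group and Lgals1, Pdcd1 and Wars lower, although 0 of the 8 passed edgeR's adjusted threshold.

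Around Ido1, a list of 18 enzymes and sensors of kynurenine and amino acid metabolism had 15 tested genes, of which 0 were called. Their median log2 fold change was 0.17, and 2 had an unadjusted p under 0.05, against 19.0% of all genes tested. Wars, the enzyme that charges tRNA with tryptophan and so uses the amino acid that IDO1 degrades, was at 67.5 and 62.7 CPM in the aged-SP libraries and at 107.1, 97.8 and 107.3 CPM in young-SP replicates 1, 2 and 4. The libraries within each group were alike, and the log2 fold change of Wars was -0.68 (SE 0.10, adjusted p = 0.0734). Ahr, the receptor that kynurenine activates, was at 35.0 and 36.8 CPM against 29.9, 30.8 and 28.1 CPM (log2 fold change 0.28, SE 0.10, adjusted p = 0.233).

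Of 10 adenosine enzymes and suppressive cytokines, 7 were tested and 0 were called, with a median log2 fold change of 0.05. Only 1 gene had an unadjusted p under 0.05, against 19.0% of all genes tested. That gene was Tgfb3, a member of the transforming growth factor beta family, at 36.2 and 32.0 CPM in the aged-SP libraries and at 19.8, 20.2 and 19.9 CPM in young-SP replicates 1, 2 and 4 (log2 fold change 0.77, SE 0.11, adjusted p = 0.0734). The 3 young-SP libraries were almost equal. Its exons overlap Gm37804 and Gm48008 on the opposite strand over 12.4% of their bases.

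Interferon gamma drives several of the 10 genes. In a list of 16 genes of its signal and of regulators of the ligands, 15 were tested and 0 were called. The median log2 fold change was 0.14, and 1 gene had an unadjusted p under 0.05, against 19.0% of all genes tested. This was Irf2, at 41.0 and 34.3 CPM in the aged-SP libraries and at 32.1, 27.0 and 29.2 CPM in young-SP replicates 1, 2 and 4 (log2 fold change 0.36, SE 0.13, adjusted p = 0.242).

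NF-kB and dendritic cell maturation factors, a list of 14 genes that were all tested, had 0 calls and a median log2 fold change of 0.26. In 5 genes the unadjusted p was under 0.05, 4 of them above 0 and 1 below. Over all genes tested this share was 19.0%, with 9.62% above 0 and 9.36% below. Relb, a subunit of NF-kB that acts in dendritic cell maturation, was at 25.5 and 16.5 CPM in the aged-SP libraries and at 11.4, 11.1 and 13.4 CPM in young-SP replicates 1, 2 and 4 (log2 fold change 0.81, SE 0.22, adjusted p = 0.154). Rela, another subunit, was at 85.3 and 69.3 CPM against 59.0, 59.9 and 60.5 CPM (log2 fold change 0.37, adjusted p = 0.179). For both, aged-SP replicate 1 was the highest library, as it was for Cd80. Batf3, a factor of cross-presenting dendritic cells, had a log2 fold change of 0.71 (adjusted p = 0.207), and Fscn1, an actin-bundling protein of mature dendritic cells, of -0.67 (adjusted p = 0.0867).

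The remaining marker lists did not separate the groups by their sums. B cell markers were scarce at 3.20 to 6.32 CPM, with Cd79b (1.80 to 4.44 CPM) and Cd79a (0.734 to 0.945 CPM) the most abundant. Endothelial markers, led by Pecam1 and Cdh5, summed to between 418.6 and 686.5 CPM and myometrial markers, led by Myh11 and Acta2, to between 8493 and 13520 CPM. Ovary and oviduct markers lay between 36.4 and 235.1 CPM, nearly all of it Ovgp1 followed by Foxj1, with the steroidogenic genes Cyp11a1 and Cyp17a1 under 1 CPM. Endometrial stroma markers, led by Vim and Hoxa10, summed to 2152 and 2433 CPM in the aged-SP libraries and to 2432, 3182 and 3074 CPM in young-SP replicates 1, 2 and 4, and 4 of the 7 (Pdgfra, Hoxa11, Hand2 and Pgr) had both aged-SP libraries lowest, against 19.3% of all genes tested, while Esr1 had both highest, at 418.8 and 394.8 CPM against 310.5, 343.0 and 353.5 CPM.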

How the data were processed

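Whole uterine RNA of 2 aged-SP and 3 young-SP libraries was analysed, grouped by the sample labels. The study made the libraries with a NEBNext Ultra kit, sequenced them on an Illumina HiSeq and aligned the reads with HISAT2 2.1.0, and the submitters' processing notes also name Bowtie2 2.2.3 and HTSeq 0.6.0 without a role. The paper states that a young-SP sample was left out as an outlier, and no such library was analysed here. It also describes experiments in triplicate, while the labels give 2 aged-SP and 3 young-SP libraries. The sources used here do not explain this difference, and the groups follow the labels. The deposited count of each gene in each library is unnormalized. The deposited FPKM equals the count over gene length and over the library's total (largest relative gap 2.01e-07), and was used only to order genes. The deposited table also holds the authors' own DESeq2 comparison, as mean level, fold change, log2 fold change, p-value and adjusted p-value, which was not used. No column with values per sample was left unused (0 columns). Gene positions are those of the table, and 8 of the 10 equal GENCODE M21 on GRCm38. GENCODE M21 gives another end for Pdcd1lg2 and places Cd80 at chr16:38455561-38496335. The Cd80 promoter shown above therefore lies inside that gene model. The Cd80 FPKM rests on 1701 counted bases, against 3703 exon bases in GENCODE M21, which limits its place in the order.

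Counts were filtered with filterByExpr, scaled by TMM (factors 0.990 to 1.02) and compared with glmQLFit and glmQLFTest of edgeR 4.0.16 in R 4.3.3, two-sided, with Benjamini-Hochberg adjustment over all 17013 genes kept. A gene was called where its adjusted p was under 0.05 with a log2 fold change beyond 1 in either direction, after the study's thresholds. Intervals are at 95% and the floor is 3 counts. The floor covers counting error only, since reads carry no molecular identifiers. The coefficient of biological variation was 25.1%. Ratios of counts were compared by exact permutation of the 5 libraries (scipy 1.17.1, two-sided). Motifs were read from RefSeq promoters. The fits were also run on simulated counts with added changes larger than those of the tested members. That run does not show how well smaller differences are found. The members, gene lists and tests were chosen with earlier results of these data known. Beyond the 10 genes, those with an unadjusted p under 0.05 were named, at most 4 a list in order of p, with the receptors Cd28, Ctla4, Icos, Pdcd1 and Havcr2, and the 2 most abundant markers of a list where its sum is given. Alternatives were DESeq2 size factors, library size alone, DESeq2 1.42.0, limma-voom (limma 3.58.1), no filter, at least 10 counts in every library, edgeR with legacy = FALSE, a replicate block, each library left out, and for ratios and levels per leukocyte RNA an added 0.5 counts or other marker lists.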

Additional observations from a re-analysis of the deposited data

How the results depend on the processing

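Of the 10 genes, 0 were called under every alternative except the one without young-SP replicate 1, which called Cd83, so that the count lay between 0 and 1 when each library was left out. The number with an unadjusted p under 0.05 was 0 in the main comparison, 1 with DESeq2 (Cd83), 1 without a filter (Cd83), 1 with at least 10 counts in every library (Cd80), and between 0 and 4 with each library left out. The number whose groups did not overlap was 2 of the 8 tested genes, 2 of the 6 ratios and 2 of the 8 levels per leukocyte RNA, and with a library left out it lay between 2 and 6, 2 and 5, and 2 and 6. The last was 0 with dendritic cell, macrophage and monocyte markers without Cd14, a divisor chosen after seeing the data. Fewer libraries overlap less often by construction. By CPM with all libraries, 38.8% of all genes tested had groups apart, and no such share was taken for the ratios or the levels per leukocyte RNA.

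Some directions turned. Left-out libraries moved the log2 fold change of Cd86 between -0.0342 and 0.51, of Cd274 between -0.29 and 0.98, of Cd276 between -0.27 and 0.14, of Vsir between -0.0671 and 0.47, of Lgals9 between -0.26 and 0.43, of Cd28 between -6.04 and 0.34 and of Icos between -0.22 and 0.48, and levels per leukocyte RNA of Cd274 between -0.0064 and 0.98 and of Cd276 between -0.0490 and 0.14. Limma-voom gave 0.0667 for Lgals9. Per dendritic cell, macrophage and monocyte marker RNA the differences turned to -0.25 for Cd86, -0.10 for Cd274, -0.19 for Icosl, -0.52 for Cd276, -0.28 for Vsir and -0.41 for Lgals9, although the main value for Icosl had the groups apart, and without Cd14 to -0.14 for Cd276 and -0.0281 for Lgals9. Beyond the construction of each divisor, the cause was not tested. Vtcn1 passed the adjusted threshold without a filter as well (adjusted p = 0.0333), and the range over its alternatives was from 7.31e-06 to 0.271. For Cd83 that range was from 0.0279 to 0.585, and for Pdcd1 from 0.0214 to 0.377.

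Replicate numbers 1 and 4 occur in both groups, but the labels do not say that a number marks a shared batch. Deviations from the group means correlated at 0.15 for number 1 and 0.14 for number 4. With a replicate block, 0 of the 10 genes were called and 0 had an unadjusted p under 0.05, and 2 genes in all were called in place of 25. With 2 libraries against 3, the ratios could not reach a p under 0.2, and Pdcd1lg2, Ido1 and Ctla4 were too rare to compare at this depth.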

Other observations

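Genes outside the naming rule were looked at for the split that Cd83 showed, and were chosen after their values were seen. Cd200, whose product restrains myeloid cells, was at 49.5 and 48.5 CPM in the aged-SP libraries and at 49.4, 85.5 and 71.6 CPM in young-SP replicates 1, 2 and 4. Young-SP replicate 1 thus lay with the aged-SP libraries for Cd200 as it did for Cd83, and the log2 fold change over all 5 libraries was -0.49 (SE 0.23, adjusted p = 0.328 by edgeR) and -0.69 without that library (SE 0.12, adjusted p = 0.0462). Vim, encoding the intermediate filament of stromal cells, was at 549.6 and 832.0 CPM against 696.4, 1268 and 1175 CPM, again with young-SP replicate 1 among the aged-SP libraries, and its log2 fold change was -0.60 (adjusted p = 0.366) with that library and -0.84 (adjusted p = 0.101) without it. Epcam, encoding an adhesion molecule of epithelium, was high in the same 3 libraries, at 262.1 and 235.4 CPM in the aged-SP libraries and 280.8 CPM in young-SP replicate 1, against 76.6 and 87.0 CPM in young-SP replicates 2 and 4. The log2 fold change of Epcam was 0.75 (SE 0.59, adjusted p = 0.529) with young-SP replicate 1 and 1.59 (SE 0.13, adjusted p = 0.0134) without it. These genes were picked for this split, so their lower adjusted p without that library follows in part from the choice. Leaving that library out called 3.45% of all genes tested.

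Aged-SP replicate 1, the highest library for Cd80, was also the highest for the costimulatory receptor Cd40, at 10.4 CPM against 3.49 to 4.94 CPM in the other libraries. Tnf and Cxcl10 were highest there as well, at 8.22 CPM against 1.12 to 3.69 CPM and at 36.3 CPM against 1.42 to 6.82 CPM. The other aged-SP library was within the range of the young-SP group for all 3 of these genes. Cd40, Tnf and Cxcl10 were also outside the naming rule and were chosen after their values were seen. Aged-SP replicate 1 was the highest library for 22.8% of all genes tested. The values of these 3 genes are given without a test.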
